A study of Rattus norvegicus with 6 samples.

Results

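Integrin subunits and the proteins that couple them to the actin cytoskeleton were examined in cultures made from rat dorsal root ganglia, which hold the cell bodies of sensory neurons with their glia, fibroblasts and vessels. The members were chosen by gene symbol in the deposited mRNA table, as every integrin alpha or beta subunit (with Itgam, also a macrophage marker, left out by the rule) and 15 named proteins of focal adhesions. The rule found 39 genes among the 16551 of the table, of which 24 were integrin subunits and 15 cytoplasmic adhesion proteins. Cells had been dissociated from lumbar and sacral ganglia and kept for 48 h in DMEM (control) or in a high-glucose medium (45 mmol/L glucose). The labels also mention paraformaldehyde fixation of coverslip cultures, and whether those are the sequenced cells was not given. Each group had 3 samples. The strain, sex and age of the rats and the glucose level of the control medium were not given in the sources used here, and no sample controlled for osmolarity. The samples of a group are called duplicates in the labels, with no word on separate cultures or animals, so the p-values cover the spread among the 6 samples alone, and that spread may be technical.

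Integrins are receptors made of an alpha and a beta subunit that bind matrix proteins outside the cell. Inside, talin and kindlin bind the tail of the beta subunit and switch the receptor to its active state. The complex of integrin-linked kinase, PINCH and parvin, the kinase FAK with its scaffolds, and actin-binding proteins such as vinculin and alpha-actinin then build the focal adhesion, where the matrix is tied to actin fibres. In peripheral nerve, Schwann cells use laminin-binding integrins to attach to the basal lamina, and fibroblasts and contractile cells use collagen and fibronectin receptors.

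The mRNA table held between 28780612 and 33108451 reads per sample. Cell type markers were summed in CPM, the reads of a gene scaled to a common library size, which is not per length, so the lists are not ranked against each other. In control samples, 11 fibroblast markers summed to 54391 to 56589 CPM, of which the collagens Col1a1 and Col3a1 made up 53570 to 55787 CPM and the other 9 markers 800 to 821 CPM. The 12 mural and smooth muscle markers summed to 15024 to 15166 CPM, of which Acta2 and Tagln made up 12294 to 12382 CPM. In the same samples, 13 Schwann cell and satellite glia markers summed to 973 to 1013 CPM and 14 sensory neuron markers to 113 to 117 CPM. No measured marker had 0 reads in every sample of a group. The 7 endothelial markers summed to 72.4 to 76.3 CPM, and Pecam1, Emcn and Cldn5 were not analysed here, nor were 7 of 9 lymphocyte markers.

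Most of these genes were lower in high glucose. Itgb1, the beta subunit shared by most matrix receptors, was 1.72-fold lower, and the alpha subunits Itga4, Itga7, Itga6 and Itga8 were 2.13-fold to 3.28-fold lower. The linkers Tln1, Vcl, Actn1 and Actn4 were 1.48-fold to 1.83-fold lower, whereas Itga10, a collagen receptor subunit, was 4.62-fold higher and Ptk2, which encodes FAK, 1.15-fold higher. Of the 39 members, 26 were lower and 4 higher at an adjusted p under 0.05 (limma, Benjamini-Hochberg over all genes), and 9 did not pass. Of the 24 integrin subunits, 12 were lower, 3 higher and 9 did not pass, a share called of 62.5%. The 15 cytoplasmic proteins all passed, 14 lower and 1 higher. Among all genes tested, 50.5% passed, 25.5% lower and 24.9% higher. The median log2 fold change, high glucose minus control, was -0.29 over the members and 0.01 over all genes. In 29 of the 39 the samples of the groups did not overlap, beside 57.6% of all genes. Non-overlap was seen in 14 of the 24 integrin subunits and in all 15 cytoplasmic proteins. At a mean of at least 8 log2 CPM this held for 11 of 14 members and for 535 of 622 genes. A change of at least 1.5-fold was found in 13 members that were lower and 2 that were higher, against 7.3% and 8.7% of all genes. The RNA of mixed cultures was measured, so fewer cells of a type and less RNA per cell cannot be told apart.

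Depth and scaling bear on this count. Genes with many reads passed more often and were more often lower. Of the 12247 genes with a mean of at least 0 log2 CPM, 61.7% passed, 32.1% lower and 29.5% higher, and of the 35 members at that level 25 were lower and 3 higher. Of the 622 genes with a mean of at least 8 log2 CPM, 83.9% passed, 58.5% lower and 25.4% higher, and their median log2 fold change was -0.12. Among the 14 members at that level, 12 were lower, none was higher and 2 did not pass, and their median was -0.30. All 39 members were tested, with no minimum of reads set here, and 4 (Itgb2, Itgb6, Itgb7 and Itgal) lay below a mean of 0 log2 CPM. With CPM taken on library totals, without the scaling factors in the deposited values, the median of all genes moved from 0.01 to 0.12, and the calls over all genes from 4126 higher and 4228 lower to 5932 and 2847. The members then had 7 higher and 23 lower, and after quantile normalization 6 higher and 23 lower. Members whose call depends on the scaling are named where they are described.

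**Figure D1:**
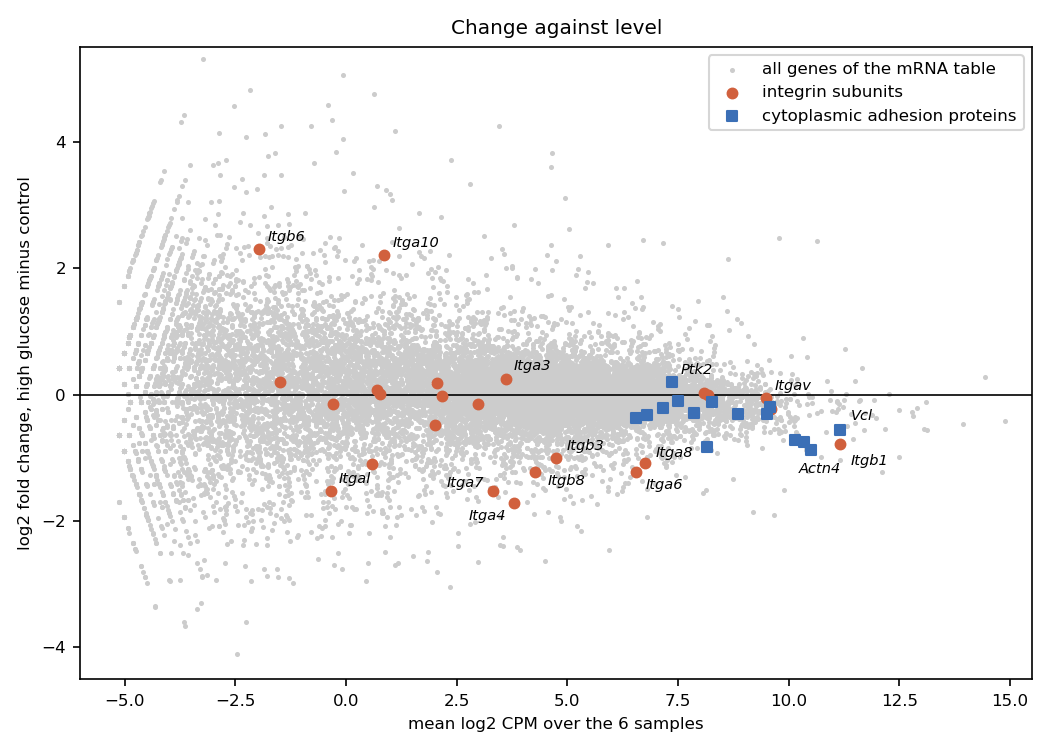
Log2 fold change (high glucose minus control, vertical axis) against the mean log2 CPM over the 6 samples (horizontal axis); grey points are all 16551 genes, circles integrin subunits and squares cytoplasmic adhesion proteins. Most squares lie below 0 at high levels, and Itga10 and Itgb6 stand above 2 at low levels.

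Together the members took 1.67% ± 0.0027 (SD, n = 3) of the reads of a control sample and 1.25% ± 0.0024 of those of a high-glucose sample. The integrin beta subunits fell further as a sum than the alpha subunits. Summed beta subunits went from 3025 to 3109 CPM in control to 1762 to 1822 CPM in high glucose, a ratio of means of 0.579, and summed alpha subunits from 2495 to 2521 CPM to 2164 to 2180 CPM, a ratio of 0.866. These sums weigh genes by their reads, so Itgb1 carries most of the first, which lacks Itgb5. Itga11, Itgav, Itga1 and Itga5 carry most of the second, with log2 fold changes of -0.22, -0.06, 0.001 and 0.02. The 15 cytoplasmic proteins summed to 11679 to 11878 CPM in control and to 7938 to 8185 CPM in high glucose, a ratio of 0.683.

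The promoters of the members with the smallest p are shown because these genes fell together. They were searched for the binding motifs of SRF (the CArG box, by name) and of TEAD (GGAATG), factors known to act on cytoskeletal genes, on both strands, and neither motif contains the other. Of the 39 members 27 matched RefSeq's promoter table (GRCr8, a later assembly than the one used for the reads), with 31 promoters of 300 bases, 250 before and 50 after the start. Actn4, which has the smallest p, was not among them, and the next 4 follow. The 250 bases before the start are printed 5′ to 3′, with a TEAD motif in capitals.
Itgb1 (chr19:73602027-73602276, plus strand): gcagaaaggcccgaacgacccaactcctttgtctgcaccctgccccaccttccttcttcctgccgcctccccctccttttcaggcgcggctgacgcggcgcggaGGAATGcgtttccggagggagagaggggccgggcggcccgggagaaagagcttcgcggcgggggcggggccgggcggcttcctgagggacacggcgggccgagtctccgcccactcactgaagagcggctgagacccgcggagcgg
Tln1 (chr5:62613688-62613937, minus strand): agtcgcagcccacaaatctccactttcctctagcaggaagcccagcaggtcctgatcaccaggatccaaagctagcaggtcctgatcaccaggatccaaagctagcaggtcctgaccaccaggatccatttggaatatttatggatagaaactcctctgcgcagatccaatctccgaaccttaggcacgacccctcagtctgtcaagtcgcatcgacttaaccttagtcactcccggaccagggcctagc
Actn1 (chr6:104826173-104826422, minus strand): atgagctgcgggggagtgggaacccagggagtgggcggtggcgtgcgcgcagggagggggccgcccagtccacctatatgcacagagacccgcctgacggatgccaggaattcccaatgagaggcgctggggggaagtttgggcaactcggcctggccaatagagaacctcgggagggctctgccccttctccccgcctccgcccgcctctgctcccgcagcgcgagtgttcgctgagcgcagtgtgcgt
Vcl (chr15:3404801-3405050, minus strand): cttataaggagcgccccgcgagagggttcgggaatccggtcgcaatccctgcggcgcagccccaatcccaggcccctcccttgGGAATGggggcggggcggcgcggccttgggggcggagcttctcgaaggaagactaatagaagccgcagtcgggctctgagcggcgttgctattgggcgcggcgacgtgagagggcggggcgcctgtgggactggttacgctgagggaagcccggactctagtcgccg
The motif GGAATG stood at -146 from the start of Itgb1 and at -167 from that of Vcl, and these windows of Tln1 and Actn1 hold neither motif. The 22 promoters matched to members that fell came from 18 genes. Of these promoters, 5 (22.7%) held a TEAD motif and 0 a CArG box. Among all 33469 promoters the shares were 14.2% and 1.64%. The Vcl window opens with cttataagg, which lacks only the first base of a CArG box, and the base before it was not searched. Of the 3 promoters of members that rose, 2 held a TEAD motif (Itga10 and Itga3) and 1 a CArG box (Itgb6, at -95). A match is a description of letters only.

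Among the 7 beta subunits, 3 fell, 1 rose and 3 did not pass, a share called of 57.1%, near the 50.5% of all genes. Itgb5 was not analysed here. Itgb1 (ENSRNOG00000010966) had 11.53, 11.57 and 11.57 log2 CPM in control samples 1 to 3 and 10.75, 10.80 and 10.76 in high-glucose samples 1 to 3. Every high-glucose sample lay below every control sample, with a log2 fold change of -0.78 ± 0.02 (SE, adjusted p = 8.34e-13). The fall was -0.67 on library totals and -0.57 after quantile normalization.

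Itgb3 (ENSRNOG00000048449), which pairs with alpha v to bind vitronectin and other RGD proteins, had 5.19, 5.30 and 5.24 log2 CPM in control and 4.25, 4.25 and 4.22 in high glucose. Its groups lay far apart with little spread, at a log2 fold change of -1.01 ± 0.05 (adjusted p = 6.12e-10). Itgb8 (ENSRNOG00000006569), another partner of alpha v that activates latent TGF-beta, had 4.90, 4.82 and 4.92 log2 CPM in control and 3.66, 3.74 and 3.55 in high glucose. The groups were again far apart, and the log2 fold change was -1.23 ± 0.06 (adjusted p = 1.39e-09).

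Itgb6 (ENSRNOG00000008346), the epithelial partner of alpha v, went the other way on few reads. It had 4, 2 and 3 reads in the control samples and 12, 24 and 19 in the high-glucose samples. Each high-glucose sample was above each control sample, at a log2 fold change of 2.30 ± 0.45 (adjusted p = 0.00072). Itgb4, the hemidesmosome subunit that pairs with alpha 6 in Schwann cells and epithelia, had 2.96 to 3.16 log2 CPM in control and 2.79 to 3.00 in high glucose, and its difference of -0.15 did not pass, with a 95% interval of -0.35 to 0.04. Itgb2 and Itgb7, the beta subunits of leukocytes, had 75 and 28 reads over the control samples and 73 and 36 over the high-glucose samples. At that depth no difference was detectable, with 95% intervals of -0.73 to 0.44 and of -0.61 to 1.01.

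**Figure D2:**
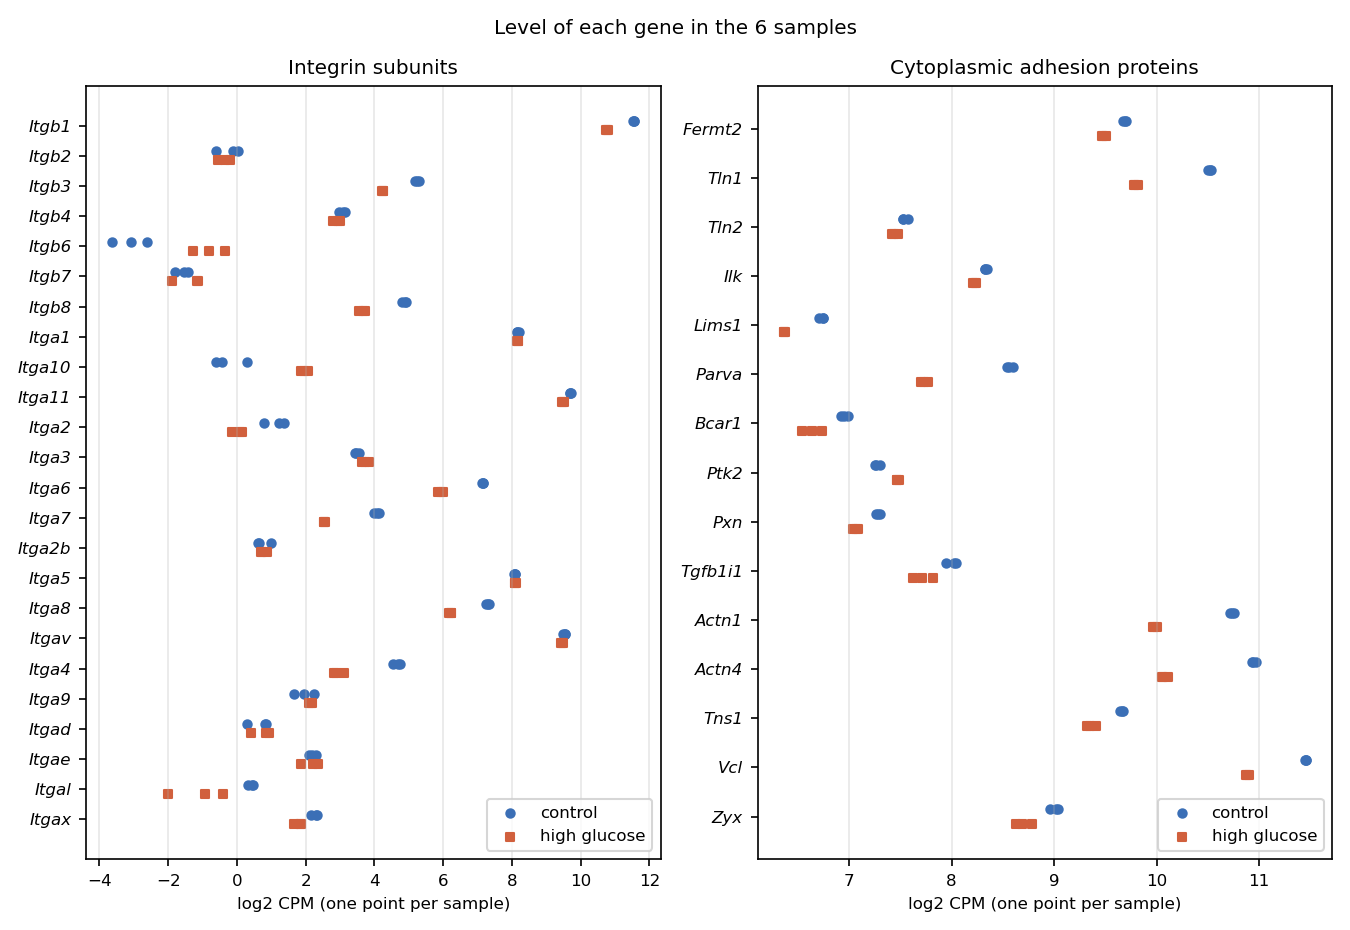
Log2 CPM (horizontal axis) of each integrin subunit (left) and cytoplasmic adhesion protein (right) in each of the 3 control samples (circles) and 3 high-glucose samples (squares). Circles and squares separate in all 15 cytoplasmic proteins and in 14 of the 24 integrin subunits, where 57.6% of all genes separate. Positions are not corrected for transcript length, so rows are not to be compared with each other.

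The laminin receptor subunits split. Itga6 (ENSRNOG00000001518), which Schwann cells pair with beta 1 and beta 4, had 7.17, 7.17 and 7.12 log2 CPM in control and 5.99, 5.85 and 5.94 in high glucose. The high-glucose samples were all lower, by a log2 fold change of -1.23 ± 0.04 (adjusted p = 7.06e-12). Itga7 (ENSRNOG00000007905), the laminin receptor of muscle and Schwann cells, had 4.09, 4.13 and 4.00 log2 CPM in control and 2.54, 2.54 and 2.57 in high glucose. It fell by 1.52 on the log2 scale (SE 0.07, adjusted p = 9.63e-10), with no overlap.

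Itga3 (ENSRNOG00000004276), the laminin-332 receptor subunit best known from epithelia, rose a little. Its levels were 3.45, 3.44 and 3.55 log2 CPM in control and 3.63, 3.85 and 3.72 in high glucose. The gap between the groups was small beside the spread of the high-glucose samples, and the log2 fold change was 0.25 ± 0.07 (adjusted p = 0.0112). Without high-glucose sample 2 it was 0.20 and the adjusted p 0.0581, within a range of 0.000951 to 0.0581 over the alternatives.

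Cell type markers also moved in the same comparison, in which 25.5% of all genes were lower and 24.9% higher. The 13 Schwann cell and satellite glia markers summed to 546 to 587 CPM in high glucose, against 973 to 1013 in control, a ratio of 0.572, and 12 of them were lower with 1 not passing. The 12 mural and smooth muscle markers summed to 8447 to 8525 CPM against 15024 to 15166, a ratio of 0.561, with 7 lower and 3 higher, and without Acta2 and Tagln the ratio was 0.633. The 14 sensory neuron markers summed to 69.6 to 72.3 CPM against 113 to 117, with 10 lower. Uchl1, the one with the highest CPM, was 1.22-fold lower, whereas the median log2 fold change of the 14 was -1.76. The 11 fibroblast markers summed to 51088 to 53676 CPM against 54391 to 56589, a ratio of 0.938 that Col1a1 and Col3a1 carried. The other 9 fibroblast markers summed to 1711 to 1753 CPM against 800 to 821, a ratio of 2.14. Of the 11, 9 were higher and 2 (Col1a1 and Thy1) lower, with a median of 0.88. The 7 endothelial markers summed to 58.1 to 60.5 CPM against 72.4 to 76.3, a ratio of 0.791, with 1 lower (Ptprb, 8.26-fold) and 6 not passing, and without Ptprb the ratio was 0.955. Markers left out of these sums were chosen after their values were seen. The part of these shifts in the values of the integrins and of the adhesion proteins was not tested.

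The collagen receptor subunits moved in both directions. Itga10 (ENSRNOG00000021217), the receptor subunit typical of cartilage, was scarce in control, with 20, 20 and 36 reads per sample, and had 109, 132 and 131 reads in the high-glucose samples. As levels these were -0.44, -0.59 and 0.30 log2 CPM against 1.87, 2.08 and 1.95, far apart in spite of the spread among controls. The log2 fold change was 2.21 ± 0.23 (adjusted p = 2.94e-06). Itga2 (ENSRNOG00000058111), the collagen receptor subunit of platelets and epithelia, had 0.80, 1.38 and 1.23 log2 CPM in control and 0.16, -0.14 and 0.10 in high glucose. It was lower by a log2 fold change of -1.10 ± 0.21 (adjusted p = 0.00072), on 197 and 97 reads.

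Itga11 (ENSRNOG00000006723), the fibrillar collagen receptor of fibroblasts, had 9.73, 9.69 and 9.71 log2 CPM in control and 9.48, 9.52 and 9.46 in high glucose. The fall was small but outside the spread, at -0.22 ± 0.02 (adjusted p = 7.19e-07), or -0.11 on library totals and -0.08 after quantile normalization. Itga1, which prefers basement membrane collagen, lay at 8.15 to 8.19 log2 CPM in control and 8.16 to 8.18 in high glucose. Its groups overlapped and its difference had a 95% interval of -0.04 to 0.05, with 25432 and 27511 reads behind it. On library totals it passed as higher (log2 fold change 0.11, adjusted p = 0.000555), as it did after quantile normalization (0.07, adjusted p = 0.023), within a range of 0.000555 to 0.985 over the alternatives.

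Of the 4 alpha subunits that bind RGD motifs, Itga8 fell clearly and the others moved little. Itga8 (ENSRNOG00000016538), found on contractile cells and fibroblasts, had 7.26, 7.31 and 7.32 log2 CPM in control and 6.17, 6.22 and 6.24 in high glucose. The high-glucose samples lay together about 1 log2 unit below the controls, at a log2 fold change of -1.09 ± 0.03 (adjusted p = 3.67e-12).

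Itgav (ENSRNOG00000004912), the partner of beta 1, 3, 5, 6 and 8, had 9.54, 9.55 and 9.50 log2 CPM in control and 9.46, 9.44 and 9.50 in high glucose. Its groups overlapped. The log2 fold change of -0.06 ± 0.02 passed (adjusted p = 0.0269) but turned to 0.05 on library totals (adjusted p = 0.0256) and to 0.02 after quantile normalization (adjusted p = 0.386). Its adjusted p rose to 0.193 when all genes shared one variance prior, and to 0.0677 with the replicate number as a block. It was 0.0775 without control 1, 0.128 without control 2, 0.0886 without high glucose 1 and 0.0942 without high glucose 2, in a range of 0.00764 to 0.386 over the alternatives.

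Itga5, the fibronectin receptor subunit, lay at 8.07 to 8.09 log2 CPM in control and 8.08 to 8.13 in high glucose, and its difference did not pass, with a 95% interval of -0.02 to 0.07. It passed as higher on library totals (0.14, adjusted p = 4.49e-05) and after quantile normalization (0.08, adjusted p = 0.00363), in a range of 4.49e-05 to 0.654. Itga2b, the platelet subunit, had 148 and 161 reads and a 95% interval of -0.40 to 0.42.

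Itga4 (ENSRNOG00000004861), which binds fibronectin and VCAM1 and is made by neural crest cells and leukocytes, showed the lowest log2 fold change of the members. It had 4.67, 4.75 and 4.54 log2 CPM in control and 2.83, 2.87 and 3.11 in high glucose. High-glucose samples were all far below the controls, at a log2 fold change of -1.72 ± 0.08 (adjusted p = 1.3e-09). Its relative Itga9 had 1.66 to 2.23 log2 CPM in control and 2.11 to 2.17 in high glucose, with overlap and a 95% interval of -0.12 to 0.51.

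Subunits of leukocyte integrins were scarce. Itgax (ENSRNOG00000036703), of dendritic cells and macrophages, had 2.30, 2.15 and 2.33 log2 CPM in control and 1.83, 1.86 and 1.66 in high glucose. It was lower without overlap, at -0.48 ± 0.12 (adjusted p = 0.0046). Itgal, of lymphocytes, had 38, 38 and 40 reads in control and 22, 16 and 8 in high glucose, a log2 fold change of -1.53 ± 0.36 (adjusted p = 0.00302). Itgad and Itgae did not pass, with 95% intervals of -0.42 to 0.55 and of -0.32 to 0.27. Itgax and Itgad are close paralogs between which the counting could have split reads, so each is uncertain. The 10 macrophage markers summed to 21.5 to 22.1 CPM in control and 20.7 to 21.8 CPM in high glucose, with 1 higher (Csf1r) and 3 lower (Adgre1, C1qa and C1qb), and their part in these values was not tested.

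**Figure D3:**
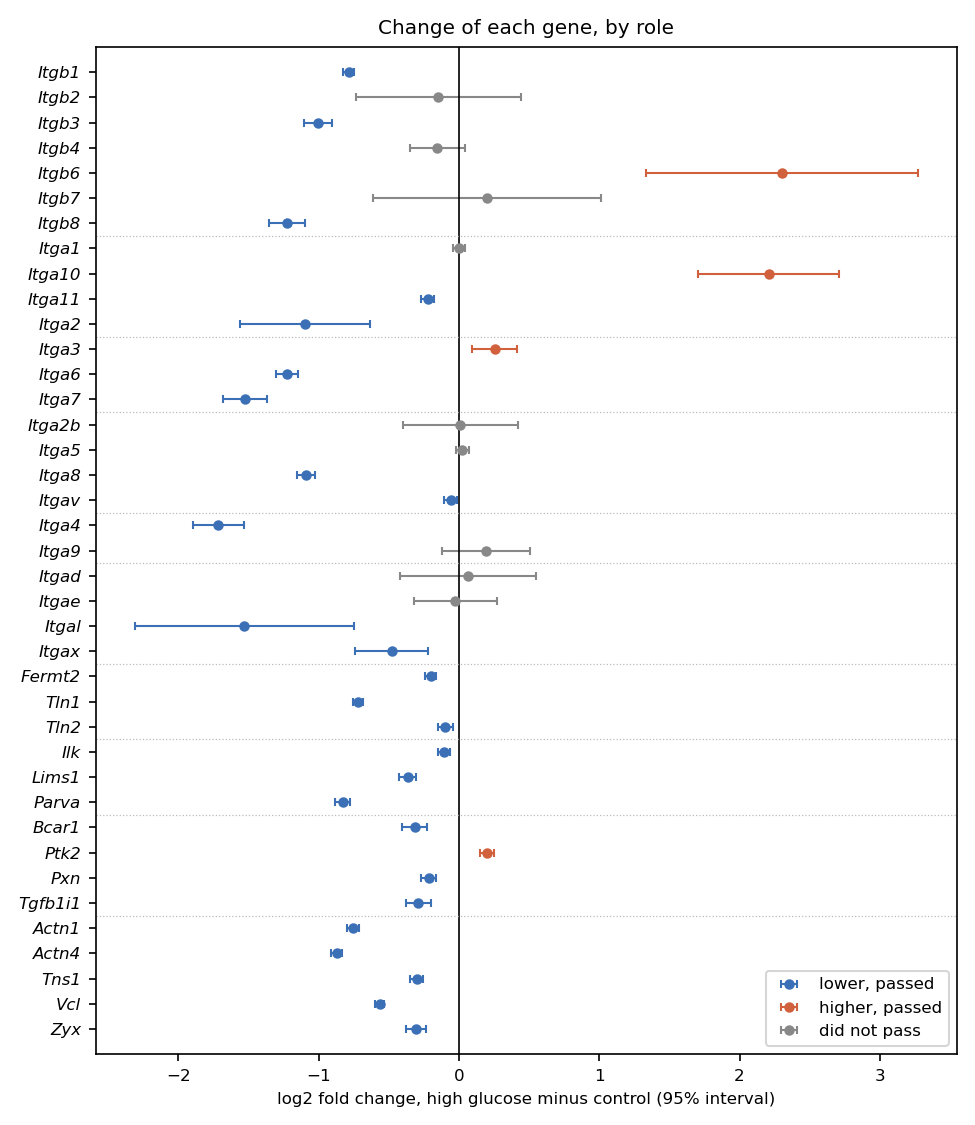
Log2 fold change of each member, high glucose minus control, with its 95% interval from limma (horizontal axis, 3 samples per group), grouped by role between dotted lines; colour shows the call at an adjusted p under 0.05. Changes run from -1.72 for Itga4 to 2.30 for Itgb6, and the intervals of the cytoplasmic proteins in the lower part are narrow and below 0 except that of Ptk2.

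All 15 cytoplasmic adhesion proteins passed, 14 lower and 1 higher, where 50.5% of all genes and 83.9% of those with a mean of at least 8 log2 CPM passed. The median log2 fold change of the 15 was -0.31. Talins and kindlin, the proteins that activate integrins, were all lower. Tln1 (ENSRNOG00000016630) had 10.53, 10.52 and 10.50 log2 CPM in control and 9.79, 9.78 and 9.81 in high glucose. The gap was many times the spread, at a log2 fold change of -0.72 ± 0.02 (adjusted p = 1.02e-12), or -0.48 after quantile normalization. Fermt2 (ENSRNOG00000009102), which encodes kindlin-2, had 9.70, 9.69 and 9.67 log2 CPM in control and 9.47, 9.47 and 9.51 in high glucose. Its fall was slight, at -0.20 ± 0.02 (adjusted p = 6.05e-07), and smaller still on library totals (-0.09) and after quantile normalization (-0.07).

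Tln2 (ENSRNOG00000018373), the second talin, had 7.52, 7.52 and 7.57 log2 CPM in control and 7.44, 7.41 and 7.47 in high glucose. The groups stood just apart, at -0.10 ± 0.02 (adjusted p = 0.00557). That call ended on library totals (0.02, adjusted p = 0.579), after quantile normalization (adjusted p = 0.228) and when all genes shared one variance prior (adjusted p = 0.0644), in a range of 0.00383 to 0.579.

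Within the complex of integrin-linked kinase, the parvin changed most. Parva (ENSRNOG00000015713), the actin-binding member, had 8.59, 8.56 and 8.54 log2 CPM in control and 7.70, 7.73 and 7.77 in high glucose. All high-glucose samples were well below the controls, at -0.83 ± 0.02 (adjusted p = 7.43e-12). Lims1 (ENSRNOG00000037765), which encodes the adaptor PINCH1, had 6.74, 6.75 and 6.71 log2 CPM in control and 6.37, 6.36 and 6.37 in high glucose, a log2 fold change of -0.37 ± 0.03 (adjusted p = 7.92e-08). Its 3 high-glucose samples were nearly level and lay below all controls. Ilk (ENSRNOG00000018993), the pseudokinase at the centre, had 8.33, 8.33 and 8.35 log2 CPM in control and 8.23, 8.21 and 8.23 in high glucose. Its small fall of -0.11 ± 0.02 (adjusted p = 0.000359) was 0.0039 on library totals (adjusted p = 0.883) and -0.03 after quantile normalization (adjusted p = 0.14), in a range of 0.000256 to 0.883.

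The FAK branch moved in opposite directions. Ptk2 (ENSRNOG00000007916), the focal adhesion kinase, had 7.25, 7.26 and 7.30 log2 CPM in control and 7.47, 7.48 and 7.47 in high glucose. It was the one cytoplasmic protein that rose, in all 3 samples above all controls, at 0.20 ± 0.02 (adjusted p = 9.9e-06), and 0.31 on library totals. Pxn (ENSRNOG00000001149), the scaffold paxillin that FAK phosphorylates, had 7.30, 7.26 and 7.28 log2 CPM in control and 7.06, 7.04 and 7.09 in high glucose. It fell by 0.22 on the log2 scale (SE 0.03, adjusted p = 8.1e-06), or by 0.10 on library totals.

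Bcar1 (ENSRNOG00000019253), the stretch-sensitive scaffold p130Cas, had 6.99, 6.95 and 6.93 log2 CPM in control and 6.64, 6.54 and 6.74 in high glucose. The high-glucose samples were more scattered but all lower, at -0.32 ± 0.04 (adjusted p = 2.56e-05), or -0.20 on library totals. Tgfb1i1 (ENSRNOG00000019965), which encodes the paxillin relative HIC-5, had 8.03, 8.04 and 7.95 log2 CPM in control and 7.71, 7.62 and 7.82 in high glucose. Its log2 fold change was -0.29 ± 0.04 (adjusted p = 5.13e-05), or -0.18 on library totals. High-glucose sample 3 lay nearest the controls, as in Bcar1, Zyx and most other cytoplasmic proteins that fell, though not in Lims1 and Vcl.

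The proteins that hold actin at the adhesion were all lower. Actn4 (ENSRNOG00000020433) and Actn1 (ENSRNOG00000056756) encode the non-muscle alpha-actinins, which cross-link actin filaments. Actn4 had 10.97, 10.94 and 10.93 log2 CPM in control and 10.07, 10.06 and 10.11 in high glucose. Its log2 fold change was -0.87 ± 0.02 (adjusted p = 3.36e-13), or -0.63 after quantile normalization. Actn1 had 10.76, 10.74 and 10.71 log2 CPM in control and 9.97, 9.96 and 10.01 in high glucose, with -0.76 ± 0.02 (adjusted p = 1.3e-12), or -0.48 after quantile normalization. In both, the samples of a group lay close together, and the groups were far apart.

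Vcl (ENSRNOG00000010765), which encodes vinculin, the protein that strengthens the bond of talin to actin under load, had 11.45, 11.45 and 11.46 log2 CPM in control and 10.90, 10.88 and 10.88 in high glucose. Its samples lay closer together within each group than those of the other actin linkers, and the log2 fold change was -0.57 ± 0.01 (adjusted p = 2.63e-12), or -0.38 after quantile normalization. Zyx, the tension-sensing LIM protein zyxin, and Tns1, the tensin of fibrillar adhesions, fell less, by 0.31 and 0.30 on the log2 scale (SE 0.03 and 0.02), or by 0.19 each on library totals.

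**Figure D4:**
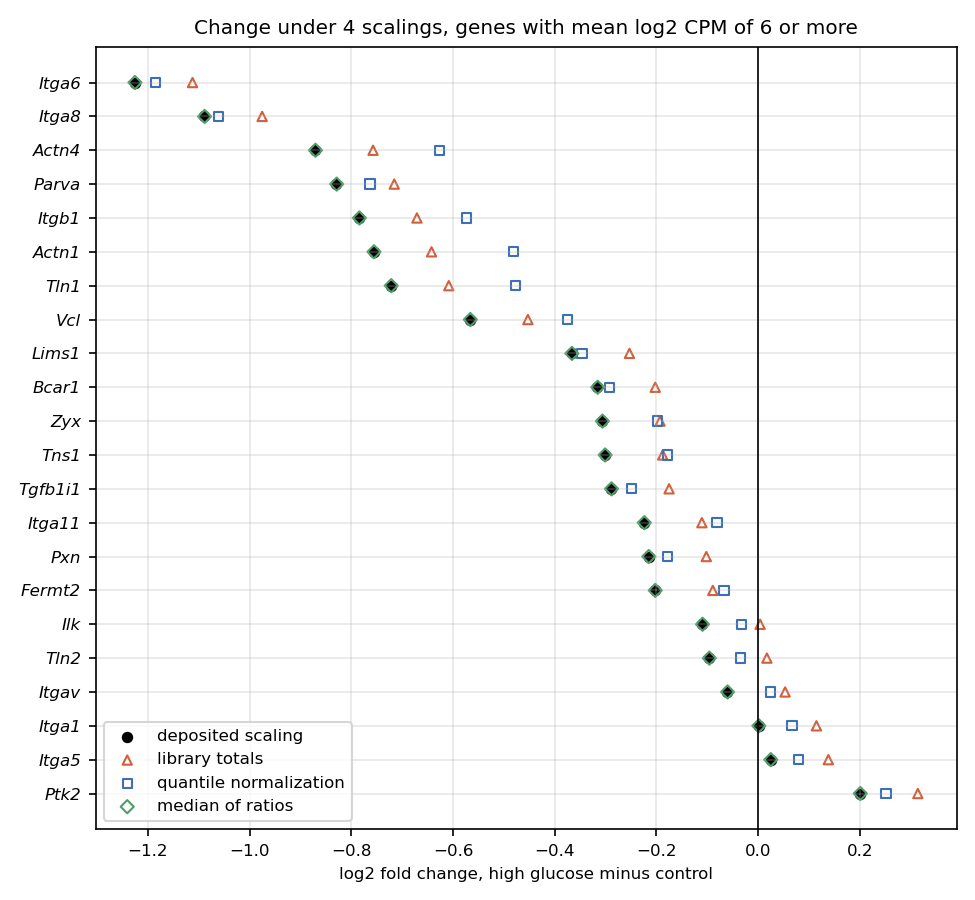
Log2 fold change, high glucose minus control (horizontal axis), of the 22 members with a mean of at least 6 log2 CPM under 4 scalings of the same reads: as deposited, library totals, quantile normalization and median of ratios. Genes at the top, from Itga6 to Fermt2, stay below 0 under each, whereas Ilk, Tln2 and Itgav change sign on library totals.

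Ratios between related members within a sample do not depend on a scaling factor of the library. CPM is not per length, so only the change of a ratio can be read. The 6 pairs were chosen after their values were seen, so the tests describe them only. The log2 ratio of Tln1 to Tln2 was 3.00, 2.99 and 2.93 in control and 2.34, 2.37 and 2.34 in high glucose. That of Itgb1 to Itgav, the main beta and an abundant alpha subunit, was 1.99, 2.01 and 2.07 in control and 1.29, 1.36 and 1.26 in high glucose. Both ratios were lower in every high-glucose sample, by 0.63 and 0.72.

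Itga6 over Itga3, the laminin receptors, fell by 1.48 in mean log2 ratio, Itga8 over Itga5, the RGD receptors, by 1.11, and Itga11 over Itga1, the collagen receptors, by 0.23. Actn1 over Actn4 was higher in high glucose by 0.12, from -0.21 ± 0.0080 (SD, n = 3) to -0.096 ± 0.0040, with an exact two-sided permutation p = 0.1. In all 6 pairs the groups did not overlap, and each had an exact two-sided permutation p = 0.1 (adjusted over the 6 pairs, 0.1), the smallest that 3 against 3 samples allow.

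**Figure D5:**
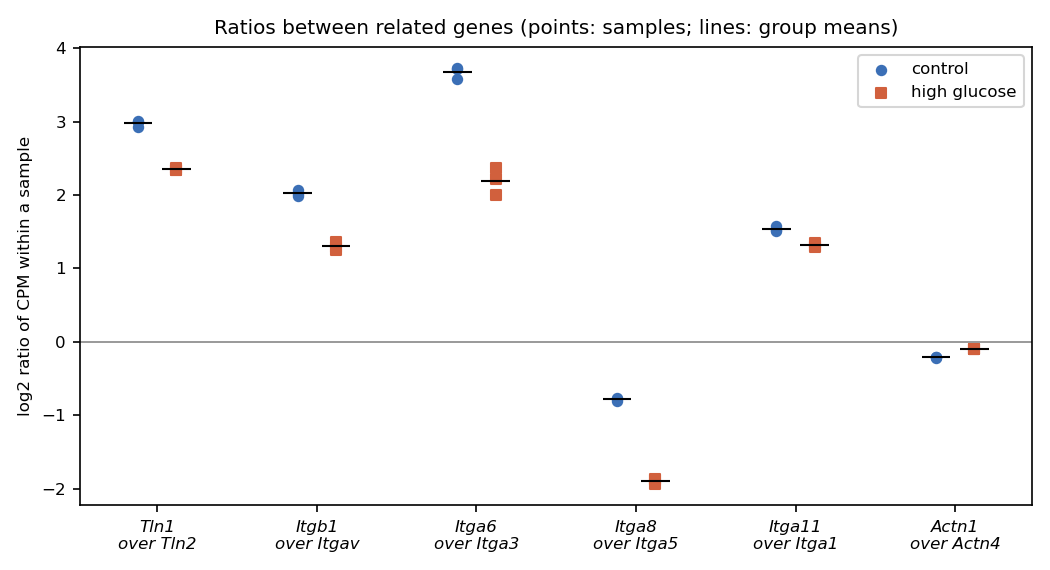
Log2 ratio of the CPM of a pair of related genes within each sample (vertical axis; circles control, squares high glucose, lines group means, 3 samples per group). The ratio is lower in high glucose in the first 5 pairs, by 0.23 for Itga11 over Itga1 to 1.48 for Itga6 over Itga3, and higher for Actn1 over Actn4.

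Other proteins of adhesion sites, from a list of 63 symbols of which 61 were measured, were lower in 35 cases and higher in 14, while 12 did not pass. Among all genes 50.5% passed, and 61.7% at a mean of at least 0 log2 CPM, where 56 of the 61 lay. The median log2 fold change of the list was -0.14. On library totals the counts were 27 lower and 17 higher. Among the lower were Lasp1, a LIM and SH3 protein of actin structures (-0.67 ± 0.02), Flna, the cross-linker filamin A (-0.54 ± 0.02), Pdlim5, a PDZ and LIM protein (-0.59 ± 0.02), and Csrp1, a LIM protein of actin bundles (-0.55 ± 0.02). Among the higher were Ppfibp1, a liprin (0.44 ± 0.02), Svil, the membrane-to-actin linker supervillin (0.60 ± 0.03), Kank4, of a family that binds talin (0.61 ± 0.03), and Tns2, a tensin (0.45 ± 0.03). Paralogs of the parvin and PINCH members, named after their values were seen, were lower too, Parvb by a log2 fold change of -1.05 ± 0.05 and Lims2 by -0.997 ± 0.05.

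Ligands of integrins in the matrix changed in both directions. Of 36 listed, 34 were measured, 17 were lower, 12 higher and 5 did not pass, beside 25.5% lower and 24.9% higher among all genes and 61.7% passing at a mean of at least 0 log2 CPM. The median of the ligands was -0.09. These counts became 13 lower and 14 higher on library totals and 12 lower and 13 higher after quantile normalization. Spp1, the RGD protein osteopontin, and Thbs2, a thrombospondin, rose by 2.44 ± 0.02 and 2.48 ± 0.02, and Col6a1 and Col3a1, collagen chains, by 0.35 ± 0.02 and 0.28 ± 0.01. Tnc, tenascin C, had a log2 fold change of -1.90 ± 0.02, Tgfb3, whose latent form binds alpha v integrins, -1.51 ± 0.02, Postn, periostin, -0.99 ± 0.02, and Thbs1, the other main thrombospondin, -0.98 ± 0.02.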

How the data were processed

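Libraries of 3 control and 3 high-glucose samples were grouped by title, with the DM titles read as high glucose. The build Rnor_6.0 and the tools featureCounts 1.6.0, HISAT2 2.1.0 and fastp 0.19.4 are named, per the submitters' processing notes, without role, order or settings. Whether counting used strand was not given in the sources used here. The authors deposited log2 values, voom-normalized per the file name. They are log2 CPM after 0.5 was added to each read number, on library sizes that include a scaling factor: 100% of values gave reads within 0.01 of a whole number, and read totals are sums of these. Those factors ran from 0.959 to 0.964 in control samples and from 1.03 to 1.05 in the others. The mRNA table only was used.

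The deposited log2 values were fitted with limma 3.58.1 (R 4.3.3), with group as the term and a mean-variance trend. Tests were two-sided, and p-values were adjusted by Benjamini-Hochberg across the 16551 genes. The script was tested on simulated data, which did not cover the choice of scaling. The members and lists were chosen with earlier results of these data known. Every member is accounted for. Values per sample are given for up to 3 members of each role with the largest change among those that passed, with a mean of at least 0 log2 CPM and no overlap, and always for Itgb1, Itgav, Vcl, Tln1 and Ptk2. Reads per sample of Itgb6 and Itgal are given outside this rule. In the lists of other adhesion-site proteins and ligands, up to 4 genes with the smallest p in each direction are named. Where a listed symbol had several rows, that of highest mean stood for it. Each sample was counted as a replicate. The mean chi-square per gene between samples was 2.72 to 4.24 within groups and 72.6 to 78.6 between them. These values cannot tell separate cultures from technical repeats of 1 culture. Alternatives were other scalings, filters and variance models, 2 reads added in place of 0.5, a replicate block and leaving out each sample. Plots came from matplotlib 3.10.9 (Python 3.11.15).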

Additional observations from a re-analysis of the deposited data

How the results depend on the processing

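Under 15 alternatives, 26 of the 30 members with a call kept their direction and stayed past the threshold wherever they were tested; the exceptions were Ilk, Tln2, Itgav and Itga3, whose values are given with their description, and the cause was not tested. The number of members called higher was 7 on library totals, against 4. Signs changed on library totals for Ilk (0.0039), Tln2 (0.017), Itgav (0.053) and Itgae (0.087), and after quantile normalization for Itgav (0.025), Itga2b (-0.095) and Itgad (-0.046). Leaving out 1 sample at a time, log2 fold changes ranged from -0.0069 to 0.013 for Itga1, -0.058 to 0.13 for Itga2b, -0.11 to 0.23 for Itgad and -0.13 to 0.11 for Itgae, none of which passed. With a filter at a mean of 0 log2 CPM, or without the lowest 25% of genes, 4 members left the test. Same-numbered samples did not deviate together (correlations of -0.0921, -0.0433 and 0.0255). Differently numbered samples gave -0.0714 to 0.116, so these correlations cannot tell whether the numbers pair the samples. With a replicate block 4 members were higher and 25 lower, the lost call being that of Itgav. Precision weights from voom and median-of-ratios scaling were chosen after seeing the data and gave 26 lower and 4 higher, as reported. The 2 planned count-model tests were not run, although whole reads could be recovered from the log values, so the calls were not compared with a count model. Members under 100 reads per group, such as Itgb2, Itgb6 and Itgb7, are limited by depth.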

Other observations

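Matrix receptors other than integrins, and membrane proteins that accompany integrins, also moved in both directions. This list of 21 genes was written after the results above were known, and 20 were measured. Of these, 10 were lower, 7 higher and 3 did not pass (limma, adjusted p under 0.05), with a median log2 fold change of -0.14. Among all genes 50.5% passed, and 61.7% at a mean of at least 0 log2 CPM, where all 20 lay. Syndecans, the heparan sulfate proteoglycans that act beside integrins, split: Sdc3 and Sdc1 were lower, with log2 fold changes of -1.30 ± 0.03 and -0.70 ± 0.04, and Sdc2 and Sdc4 higher, with 0.61 ± 0.02 and 0.24 ± 0.03. Cd44, the hyaluronan receptor, had -0.64 ± 0.02, and Gpc4, a glypican, -0.96 ± 0.03. Dag1, the laminin receptor dystroglycan, was lower by a smaller amount (-0.36 ± 0.02). The collagen receptor kinases Ddr1 and Ddr2 were higher, with 0.45 ± 0.03 and 0.18 ± 0.02. Cd47, which associates with beta 3 integrins, did not pass (log2 fold change -0.0014 ± 0.06, adjusted p = 0.988), on 4010 reads in control and 4336 in high glucose.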
